A study of Mus musculus with 25 samples.

Results

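Activator protein 1 (AP-1) is a family of dimeric transcription factors, and 10 of its genes were followed here across 5 murine melanoma lines: Fos, Fosb, Fosl1, Fosl2, Jun, Junb, Jund, Atf3, Maff and Batf3. They were chosen by gene symbol, each found through its versioned Ensembl identifier, and make up 10 of the 55385 genes in the deposited tables. In D4M melanoma the transcripts of Fosl1, Fosb, Fosl2, Jun and Junb were higher than in each of the other lines, and Fosl1 was close to absent elsewhere. In HCmel12 melanoma Fos, Maff and Batf3 were the highest, whereas Jund was highest in WT31 melanoma and varied least of all members.

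Bulk RNA-seq was performed on untreated, sub-confluent cultures, with 5 biological replicates for each line. WT31 comes from mice with a Tyr::NrasQ61K transgene on an INK4a-/- background, with the tyrosinase promoter as driver. B16F10 luc2 is a purchased, luciferase-tagged B16F10 line with multiple mutations, Trp53 among them. RET comes from mice that carry human RET under the mouse metallothionein promoter, HCmel12 from a primary melanoma of an HGF-CDK4(R24C) mouse, and D4M from mice with the alleles Tyr::CreER and BrafCA among others. The study compared 3 lines that colonize the liver with high or intermediate efficiency (WT31, B16F10 luc2 and RET, HIM-melanoma) with 2 lines of low efficiency (D4M and HCmel12, LM-melanoma). All 5 groups are melanoma cells, and none is an untransformed control. Each group is 1 line, so that p-values rest on the spread between cultures within lines, estimated jointly over the 5 lines. D4M and HCmel12 each had a growth medium of their own, so that line and medium cannot be told apart for them. The medium of D4M held 5% fetal calf serum and those of WT31, RET and HCmel12 held 10%. By the methods of the study B16F10 luc2 was kept in the same medium as WT31 and RET. Several members are induced by serum, and the part of this difference in the results was not tested.

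AP-1 factors bind DNA as pairs joined by a leucine zipper, with a basic region that contacts the bases. JUN proteins pair among themselves or with FOS, ATF, MAF or BATF proteins, while FOS proteins need a partner. Fos, Fosb, Jun and Junb are immediate early genes, induced within minutes by serum and growth factors through the MAP kinases. Fosl1 (FRA-1) and Fosl2 (FRA-2) follow later and their proteins are stabilised by ERK signalling. In melanoma, high AP-1 activity is known from dedifferentiated, invasive cell states, and melanocyte lineage genes from the opposite state.

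The members share the basic region, and the stretch that encodes its conserved motif, from an asparagine to an arginine that both touch DNA, is shown because it relates the members to each other and is where family members are most alike. Each line gives 27 coding bases, 5′ to 3′, read from GENCODE M21 transcripts (GRCm38), with the bases that differ from Fosl1 in capitals.
Fosl1: aacaagctagcagctgctaagtgcaga
Fosb: aacaagctGgcTgcAgctaagtgcagG
Fosl2: aacaagctagcTgcAgcCaagtgTCgG
Fos: aaTaagAtGgcTgcAgcCaagtgcCgG
Junb: aacaGgctGgcGgcCAcCaagtgcCgG
Jun: aacCGCAtTgcCgcCTcCaagtgcCgG
Jund: aacCGCAtCgcCgcCTcCaaAtgcCgC
Atf3: aaTaaAAtTgcTgctgcCaagtgTCga
Batf3: aacCGgGtTgcagctCAGaGgAgcCgG
Maff: aacCGCGGCTACgcGgcCaGCtgcCgC
Fosb shared 23 of the 27 bases with Fosl1, Fosl2 shared 21 and Fos shared 19. The 3 JUN genes shared between 15 (Jund) and 19 (Junb) bases, and Maff, with 12, was the most distant. The encoded proteins range from 118 residues in Batf3 to 380 in Fos.

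In GRCm38 the FOS genes lie at chr12:85473890-85477273 (Fos, plus strand), chr7:19302696-19310051 (Fosb, minus), chr19:5447547-5455946 (Fosl1, plus) and chr5:32135801-32157842 (Fosl2, plus). The JUN genes lie at chr4:95049034-95052222 (Jun, minus), chr8:84974484-84978718 (Junb, minus) and chr8:70698949-70700616 (Jund, plus). Atf3 (chr1:191170296-191218039, minus) and Batf3 (chr1:191097847-191108945, plus) are neighbours on chromosome 1, and Maff lies at chr15:79346621-79359076 on the plus strand. Sequence shared with another gene matters here because kallisto divides a read that fits several transcripts, and the sources used here do not give a strand setting. Without strand, reads of a gene and of an antisense neighbour cannot be told apart where they overlap. The 3′ part of Fosl1 overlaps Ccdc85b, a gene on the opposite strand (chr19:5453180-5457894), over 2767 bases, and 1107 of the 2031 different 31-base sequences of Fosl1 transcripts (54.5%) occur in Ccdc85b. Of Jund, 50.1% were shared with the antisense transcript Gm11175, of Junb 6.51% with Prdx2, and of Jun 6.39% with the antisense transcript Junos. For the other 6 members at most 0.073% were shared. Gm11175 itself had a mean of at most 0.0299 CPM in any line. Prdx2 had means from 191 CPM (B16F10 luc2) to 271 CPM (D4M), above Junb in every line. How many counts of Junb are reads of Prdx2 was not tested.

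Library totals ranged from 24199083 to 25843286 counts, and 3 counts, taken as the smallest detectable amount, correspond to between 0.111 and 0.14 CPM (TMM-scaled counts per 1000000). Of the 55385 genes 15247 had enough counts for a test. All 10 members were tested, but 7 of them had at least 10 counts in every library. Fosl1 reached that number in 6 libraries, Batf3 in 14 and Fosb in 19, so these 3 passed mainly through the lines in which they are high. One linear model was fitted to all 25 libraries (voom and limma), and a gene was called when its Benjamini-Hochberg adjusted p was under 0.05. The lines differ in most genes, and 96.9% of the tested genes differed among the 5 lines in limma's F test, as did all 10 members. The counts of members called below have to be read against that background.

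**Figure D1:**
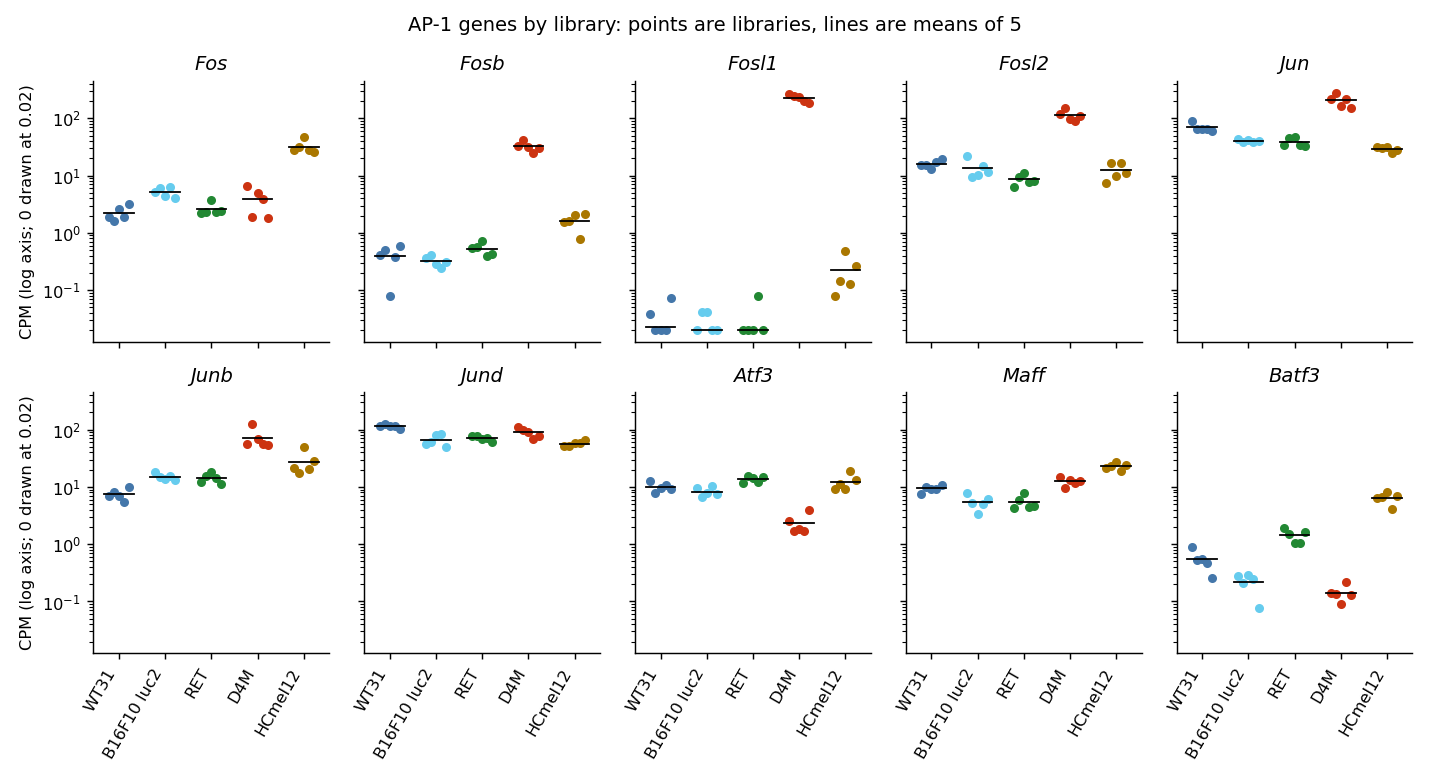
Level of each AP-1 gene in CPM (vertical axis, log scale) for the 25 libraries, grouped by line; points are libraries, horizontal lines are means of 5, and values of 0 are drawn at 0.02. Fosl1 lies between 188 and 262 CPM in D4M and at or below 0.479 CPM in the other 20 libraries, whereas Jund stays between 50.5 and 124 CPM throughout.

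Fosl1, which encodes FRA-1, had 262, 247, 238, 197 and 188 CPM in the 5 libraries of D4M. In HCmel12 it had 0.0803, 0.147, 0.479, 0.127 and 0.269 CPM. WT31 gave 3 counts of Fosl1 in its 5 libraries together, B16F10 luc2 gave 2 and RET gave 2, against 25455 in D4M. No library of another line came near those of D4M. The mean of D4M was 226 ± 32.4 CPM (SD, n = 5), and D4M exceeded HCmel12 by 10.10 on the log2 scale (SE 0.40, limma, adjusted p = 5.38e-18). Per count, the rate in D4M was 9900 times that in WT31, with an exact 95% interval for counting error from 3387 to 48009. HCmel12, with 27 counts, had 9.64 times the rate of WT31 (interval 2.94 to 49.2). These ratios rest on very few counts in the lower line.

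The neighbour that overlaps Fosl1, Ccdc85b, was measured at 41.6 ± 5.14 CPM in D4M and at 18 ± 1.43 in WT31, and at 9.02 to 12.7 on average in the other lines (SD, n = 5 each). With the counts of both genes added together, D4M still exceeded HCmel12 by 4.37 (adjusted p = 1.51e-22) and RET by 4.71 (adjusted p = 7.71e-23), while the difference between HCmel12 and WT31 turned to -0.49 (adjusted p = 0.000481). The sum is dominated by Ccdc85b in every line but D4M. How many of the Ccdc85b counts in D4M are reads of Fosl1 was not tested.

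Fosb encodes a FOS protein that is strongly induced by serum. It had 33.3, 41.8, 31.5, 24.9 and 30.8 CPM in D4M, and 1.52, 1.63, 2.07, 0.767 and 2.12 CPM in HCmel12. In WT31, B16F10 luc2 and RET all 15 libraries lay between 0.0776 and 0.709 CPM. The 3 levels did not overlap. D4M exceeded HCmel12 by 4.37 on the log2 scale (SE 0.24, adjusted p = 9.33e-15), a 20.7-fold difference, and HCmel12 exceeded RET by 1.53 (SE 0.39, adjusted p = 0.00133). The neighbours below did not differ beyond their spread, with RET over WT31 by 0.61 (95% interval -0.37 to 1.59) and WT31 over B16F10 luc2 by 0.06 (-0.98 to 1.10).

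Fosl2, the gene of FRA-2, had 118, 149, 96.5, 91.3 and 111 CPM in D4M. The other 20 libraries ranged from 6.44 CPM (RET replicate 1) to 21.6 CPM (B16F10 luc2 replicate 1), so that every library of D4M was above all of them. D4M exceeded WT31, the next line, by 2.82 (SE 0.18, adjusted p = 1.08e-13), or 7.06-fold. WT31, B16F10 luc2, HCmel12 and RET followed in this order. Libraries of neighbours overlapped, and no pair of neighbours among them was called (adjusted p between 0.0933 and 0.619 in limma). The ends of this series did not overlap, with WT31 between 12.9 and 19.2 CPM and RET between 6.44 and 11.1 CPM. HCmel12 over RET (0.48) passed without HCmel12 replicate 1 (0.65, adjusted p = 0.0231), with edgeR (adjusted p = 0.0395) and with DESeq2 (adjusted p = 0.0178).

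Fos behaved differently from the other FOS genes. Fos encodes the founding partner of JUN and is the classical immediate early gene. HCmel12 had 28.2, 32.1, 46.6, 27.7 and 25.3 CPM, the highest of them in replicate 3. D4M had 6.53, 1.91, 5.03, 3.91 and 1.79 CPM and so overlapped the remaining lines, in which the 15 libraries lay between 1.63 and 6.40 CPM. HCmel12 exceeded B16F10 luc2, the next line, by 2.61 (SE 0.22, adjusted p = 6.39e-11), or 6.10-fold, and its lowest library was above every library of the other lines. B16F10 luc2 over D4M (0.60, 95% interval -0.03 to 1.23), D4M over RET (0.39, -0.32 to 1.10) and RET over WT31 (0.23, -0.52 to 0.97) were not called. The first of these passed the threshold without D4M replicate 1 (0.82, adjusted p = 0.0219), without D4M replicate 3 (0.73, adjusted p = 0.0482) or without HCmel12 replicate 3 (0.60, adjusted p = 0.0368), with scaling by library size alone (0.75, adjusted p = 0.0265) and on log2 of TPM plus 1 (0.54, adjusted p = 0.0188). D4M over RET passed with DESeq2 (0.58, adjusted p = 0.0428). Lines that are not neighbours did differ within HIM-melanoma. B16F10 luc2 against WT31 gave 1.21 (SE 0.33, limma, adjusted p = 0.00175). RET against B16F10 luc2 gave -0.99 (SE 0.32, limma, adjusted p = 0.0111). Libraries did not overlap in either comparison.

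Levels of different genes were compared in TPM, which is scaled by transcript length, in the 24 libraries with TPM (4 of D4M). The 4 FOS genes together had 206 ± 25 TPM in D4M (n = 4) and 27.7 ± 7.12 TPM in HCmel12 (SD, n = 5). Among HIM-melanoma their sum was 6.07 ± 1.19 TPM for WT31, 7.58 ± 1.23 for B16F10 luc2 and 4.91 ± 0.849 for RET. Fosl1 made up 82.0% ± 1.90 of the sum in D4M, followed by Fosl2 with 11%, Fosb with 5.79% and Fos with 1.23%. In HCmel12 Fos made up 83.8% ± 3.05 and Fosl2 11.6%. LM-melanoma thus comprised a line with FOS transcripts mostly from Fosl1 and a line with FOS transcripts mostly from Fos. In WT31 Fosl2 led with 64.9% ± 5.69 over Fos with 30.3%. In B16F10 luc2 Fos (51.3% ± 7.25) and Fosl2 (45.5% ± 8.81) took shares that overlapped between libraries, and in RET Fosl2 had 53.8% ± 3.27 and Fos 39.1% ± 4.38. On counts per kilobase in place of TPM the shares of RET moved to 48.5% for Fosl2 and 45.9% for Fos. The order of these means stayed, but on that scale the libraries overlapped (44.8% to 53.4% and 41.1% to 48.6%).

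**Figure D2:**
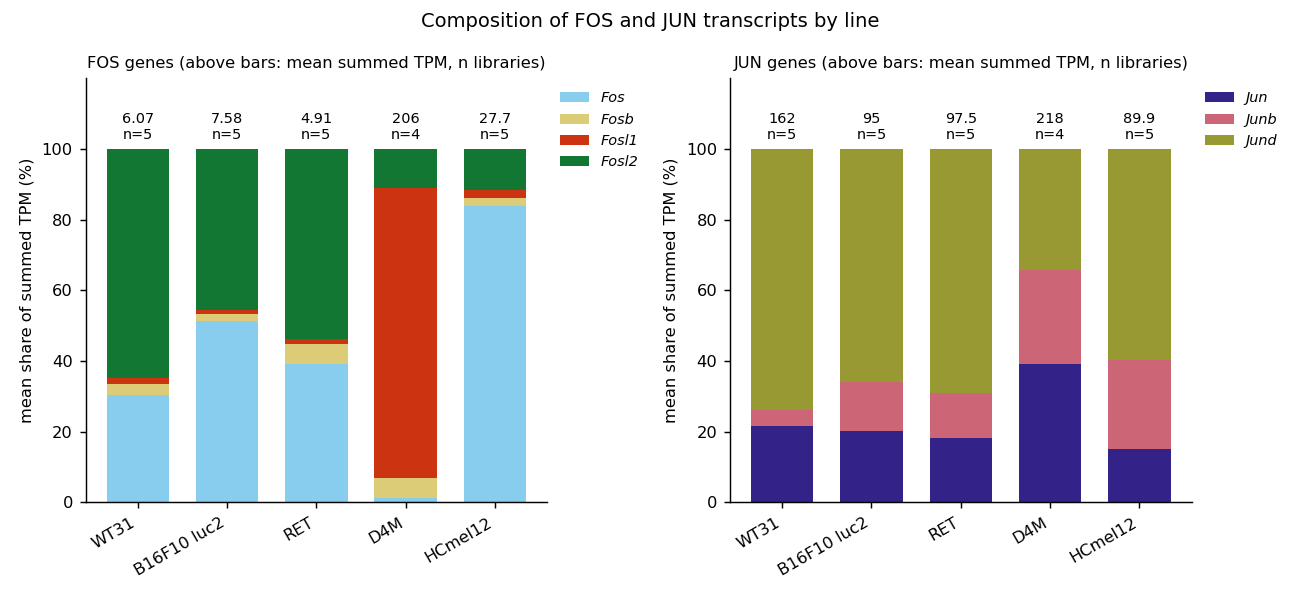
Mean share of each gene in the summed TPM (vertical axis, %) of the 4 FOS genes (left) and the 3 JUN genes (right) in each line; numbers above the bars give the mean summed TPM and the number of libraries. Fosl1 fills 82.0% of the FOS bar of D4M and Fos 83.8% of that of HCmel12, and Jund is the largest JUN share in every line except D4M.

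Jun, the gene of c-Jun and the strongest activator among the JUN proteins, had 220, 277, 161, 214 and 151 CPM in D4M. WT31 had 90.7, 65.9, 66.1, 64.0 and 59.0 CPM, with replicate 1 the highest. B16F10 luc2 lay between 39.1 and 43.5 CPM, RET between 32.7 and 46.5, and HCmel12 between 25.2 and 31.9. D4M and WT31 each stood apart from all lines below them. D4M exceeded WT31 by 1.55 (SE 0.13, adjusted p = 3.49e-11), or 2.92-fold, and WT31 exceeded B16F10 luc2 by 0.75 (SE 0.14, adjusted p = 3.17e-05). B16F10 luc2 and RET did not differ beyond their spread (0.10, 95% interval -0.21 to 0.40). HCmel12 was below RET by 0.38 (SE 0.15, adjusted p = 0.0324), a call that was lost without RET replicate 2 (adjusted p = 0.0864), RET replicate 3 (0.0945), HCmel12 replicate 4 (0.093) or HCmel12 replicate 5 (0.0564), and without a filter (0.188). The line with the highest Fos therefore had the lowest mean of Jun. Junos, the antisense transcript at Jun, had a mean of 6.84 CPM in D4M and at most 0.285 CPM in the other lines.

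Junb encodes a JUN protein that activates weakly and can restrain c-Jun. It had 56.3, 123, 68.0, 56.2 and 52.8 CPM in D4M, where replicate 2 stood far above the rest. HCmel12 had 21.1, 17.2, 50.3, 20.4 and 28.8 CPM, with replicate 3 close to the lower libraries of D4M. WT31 was lowest, at 6.83, 8.20, 6.91, 5.46 and 9.83 CPM, below all 20 other libraries. D4M exceeded HCmel12 by 1.41 (SE 0.22, adjusted p = 2.09e-06). HCmel12 exceeded B16F10 luc2 by 0.76 (SE 0.26, adjusted p = 0.0122), and without HCmel12 replicate 3 this fell to 0.51 (adjusted p = 0.0535). B16F10 luc2 and RET did not differ beyond their spread (0.10, 95% interval -0.48 to 0.69), and RET exceeded WT31 by 0.94 (SE 0.33, adjusted p = 0.0128).

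Jund encodes the JUN protein that most cells hold constantly. Its 25 libraries lay between 50.5 and 124 CPM, and the line with the highest mean, WT31 (115 ± 7.97 CPM), exceeded the lowest, HCmel12 (57.2 ± 5.38 CPM), 2.02-fold (1.01 on the log2 scale, SE 0.13, adjusted p = 9.18e-08). WT31 was above D4M by 0.38 (SE 0.12, adjusted p = 0.00732), and D4M above RET by 0.32 (SE 0.13, adjusted p = 0.0249). The latter was not called without RET replicate 3 (0.30), RET replicate 5 (0.27), D4M replicate 1 (0.25) or D4M replicate 2 (0.29), nor when libraries were scaled by size alone (0.12, adjusted p = 0.401) or on log2 of TPM plus 1 (0.11, adjusted p = 0.434). RET, B16F10 luc2 and HCmel12 followed without a called difference between neighbours, except that B16F10 luc2 over HCmel12 passed without B16F10 luc2 replicate 5 (0.29, adjusted p = 0.0498). Reads from Jund and Gm11175 cannot be told apart over the shared bases.

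The 3 JUN genes together had 218 ± 53.8 TPM in D4M (n = 4), 162 ± 12 in WT31, 97.5 ± 11.3 in RET, 95 ± 12 in B16F10 luc2 and 89.9 ± 15.7 in HCmel12 (SD, n = 5 each). Jund made up 73.9% of the sum in WT31, 65.8% in B16F10 luc2, 69.1% in RET and 59.8% in HCmel12. In D4M the 3 genes were closer, with Jun at 39.3% ± 5.55, Jund at 34.2% ± 5.66 and Junb at 26.5% ± 4.15, and the ranges of Jun and Jund overlapped. Set beside each other, D4M had 206 TPM of FOS and 218 TPM of JUN genes, whereas WT31 had 6.07 TPM of FOS and 162 TPM of JUN.

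Atf3, a stress-induced gene of the ATF family whose protein pairs with JUN, went the other way in D4M. D4M had 2.53, 1.73, 1.87, 1.69 and 3.92 CPM. The other 20 libraries lay between 6.55 CPM (B16F10 luc2 replicate 2) and 19.1 CPM (HCmel12 replicate 4), all above D4M. B16F10 luc2, the next line, exceeded D4M by 1.87 (SE 0.27, adjusted p = 6.90e-07), or 3.64-fold. RET, HCmel12, WT31 and B16F10 luc2 formed a series in which no neighbours were called (adjusted p between 0.175 and 0.284 in limma), although RET over HCmel12 passed without HCmel12 replicate 4 (0.37, adjusted p = 0.0295). The ends of the series did not overlap, with RET between 11.9 and 15.5 CPM and B16F10 luc2 between 6.55 and 10.3 CPM.

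Maff encodes a small MAF protein, which lacks an activation domain. It had 21.5, 23.3, 27.5, 19.1 and 24.4 CPM in HCmel12 and 15.1, 9.56, 13.3, 11.7 and 12.8 CPM in D4M, with no overlap. WT31 lay between 7.44 and 11 CPM, B16F10 luc2 between 3.30 and 7.86, and RET between 4.27 and 7.68. HCmel12 exceeded D4M by 0.90 (SE 0.14, adjusted p = 2.61e-06), and WT31 exceeded B16F10 luc2 by 0.80 (SE 0.19, adjusted p = 0.000504). D4M was above WT31 by 0.40 (SE 0.16, adjusted p = 0.0257). This last call was lost without WT31 replicate 1 (0.32, adjusted p = 0.085) or D4M replicate 1 (0.34, adjusted p = 0.0704), with scaling by library size alone (0.18, adjusted p = 0.322), without a filter (0.40, adjusted p = 0.0555), and on log2 of TPM plus 1 (0.06, adjusted p = 0.774) or plus 0.1 (0.07, adjusted p = 0.783).

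Batf3 encodes a short factor of the BATF family, best known from dendritic cells, that pairs with JUN proteins. HCmel12 had 6.38, 6.78, 8.19, 4.16 and 7 CPM, and RET had 1.90, 1.49, 1.06, 1.04 and 1.66 CPM. WT31 lay between 0.259 and 0.911 CPM and B16F10 luc2 between 0.0769 and 0.289. D4M was lowest, with 2 to 5 counts per library (0.0891 to 0.222 CPM). HCmel12 exceeded RET by 2.17 (SE 0.22, adjusted p = 2.52e-09), or 4.51-fold, RET exceeded WT31 by 1.44 (SE 0.32, adjusted p = 0.000269) and WT31 exceeded B16F10 luc2 by 1.23 (SE 0.42, adjusted p = 0.00991). B16F10 luc2 and D4M did not differ detectably at this depth (0.48, 95% interval -0.52 to 1.47).

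In the comparisons that share D4M, 9 of the 10 members were called against WT31 (76.1% of all tested genes), 8 against B16F10 luc2 (77.7%), 9 against RET (77.1%) and 10 against HCmel12 (72.5%). In those of HCmel12 with HIM-melanoma, 8 members were called against WT31 (70.4%), 8 against B16F10 luc2 (69.1%) and 8 against RET (67.2%). Within HIM-melanoma, 6 members differed between B16F10 luc2 and WT31 (72.8%), 7 between RET and WT31 (73.2%) and 4 between RET and B16F10 luc2 (51.5%). The members called lie above these shares in some comparisons, with all 10 between D4M and HCmel12, and below them in others, as between RET and B16F10 luc2. By direction, 5 members were higher in D4M than in each other line, which held for 20% of the tested genes (Fosl1 passed the filter through D4M and had to differ), and Atf3 was lower there than in each other line (15.7%). Fos, Maff and Batf3 were higher in HCmel12 than in each other line (9.56%) and Jun was lower (6.85%). Jund was higher in WT31 than in each other line (13.8%) and Junb was lower (11.1%). Fosb, Fosl1, Junb and Maff were higher in both LM-melanoma lines than in each of the 3 HIM-melanoma lines, 4 of 10 members, where 12.9% of the tested genes had one sign in all 6 comparisons. The place of Maff among these 4 rests on its call between D4M and WT31, which was lost in the fits given above, and that of Junb on its call between HCmel12 and B16F10 luc2. That of Fosl1 rests on 27 counts in HCmel12 against 3, 2 and 2 in HIM-melanoma. The sum of Fosl1 and Ccdc85b was lower in HCmel12 than in WT31, but Ccdc85b dominates it outside D4M, so it does not decide the place of Fosl1. The median log2 fold change of the members between D4M and the other lines was 1.08 (WT31), 1.68 (B16F10 luc2), 1.75 (RET) and 1.02 (HCmel12), and that of all tested genes lay between -0.01 and 0.01. These comparisons share the D4M libraries.

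**Figure D3:**
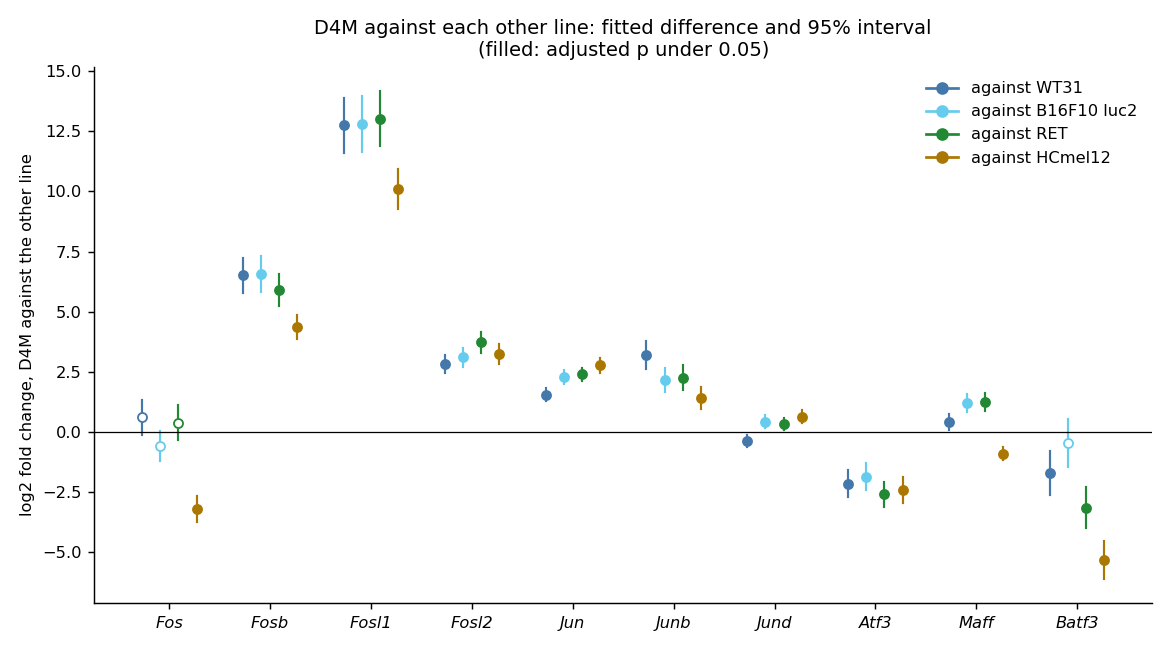
Fitted log2 fold change of each member in D4M against each other line (vertical axis), with 95% intervals; colours give the other line and filled points an adjusted p under 0.05. Fosl1, Fosb, Fosl2, Jun and Junb lie above 0 and Atf3 below 0 against all 4 lines, and the size for Fosl1 depends on how counts near 0 are fitted.

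The members also varied between cultures of the same line. Their standard deviation within lines was between 0.22 (Jund) and 0.89 (Fosl1) on the log2 scale, where the median of the tested genes was 0.19. For Fosl1, Fosb and Batf3 this includes the counting error of lines with few counts. Single libraries differed from their line in several members, up and down. In D4M replicate 2, Junb was higher than the mean of its line by 0.87, Jun by 0.47, Fosl2 by 0.42 and Fosb by 0.38, while Fos was lower by 0.82, Maff by 0.37 and Atf3 by 0.36. In that library 4 of the 10 members were the highest of the 5 (20.7% of all tested genes), as in D4M replicate 1 (18.3%). In HCmel12 replicate 3, Junb was higher by 0.98, Fos by 0.58, Fosb by 0.43, Batf3 by 0.37 and Fosl1, with few counts, by 1.29, while Atf3 was lower by 0.37. There 5 of the 10 members were the highest of the 5 libraries (22.5% of all tested genes). In RET replicate 3, 6 of the 10 members were the highest of the 5 libraries, where 21.4% of all tested genes were, and in WT31 replicate 5 this also held for 6 (29.6%). The labels do not say whether libraries with the same number belong together.

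**Figure D4:**
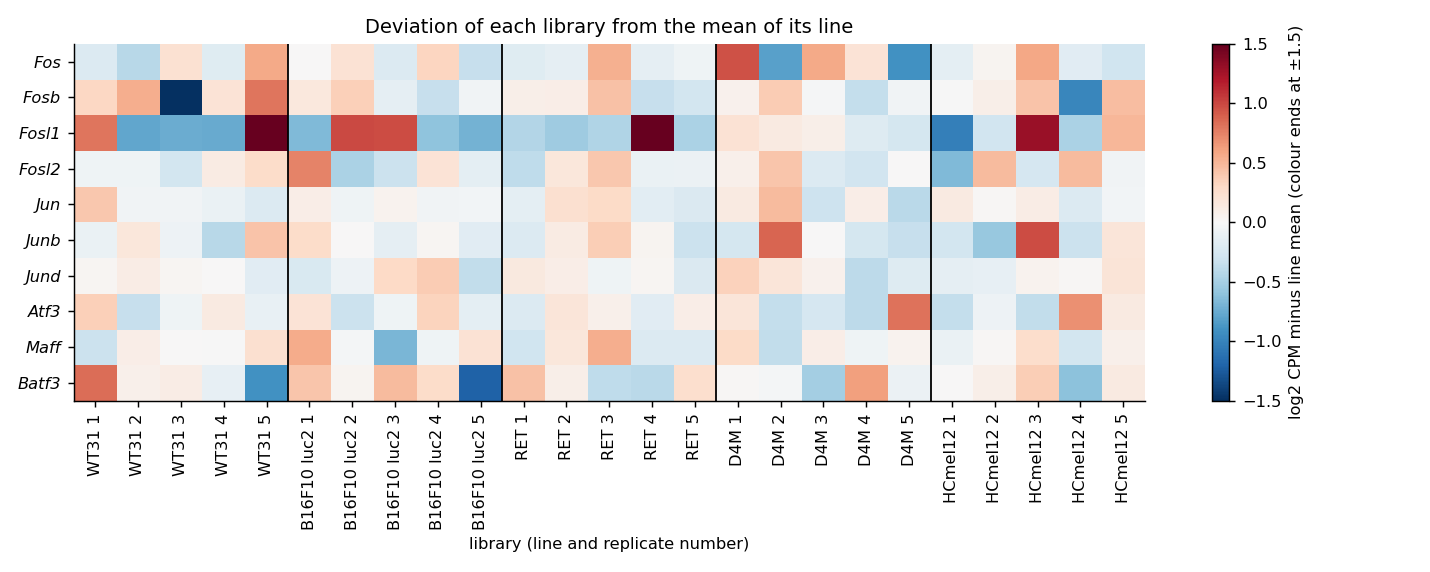
Deviation of each library (columns, by line and replicate number) from the mean of its line in log2 CPM (colour) for each member (rows). Junb stands out in D4M replicate 2 and HCmel12 replicate 3, and the strong colours of Fosl1 outside D4M come from libraries with 0 to 12 counts.

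Most other immediate early genes were also highest in D4M or HCmel12. Of 21 such genes 19 were tested, and Cyr61 and Ctgf were not found under these symbols. In D4M 11 were higher than in each other line (20% of the tested genes), namely Egr2, Egr3, Ier3, Ier5, Nr4a2, Zfp36, Btg2, Klf4, Klf6, Klf10 and Arc. In HCmel12 4 were higher than in each other line (Nr4a3, Myc, Csrnp1 and Gadd45b; 9.56%). Egr3, an early growth response factor, had 73.8 CPM in D4M, with libraries from 35.3 to 203, and 20.9 in HCmel12 (12.2 to 28.7), against at most 2.25 CPM in any HIM-melanoma library. Klf4, a zinc finger factor, lay between 81.5 and 119 CPM in D4M and was at most at 13.2 CPM on average elsewhere. Nr4a3, an orphan nuclear receptor, was at 300.5 ± 129 CPM in HCmel12 and at 0.481 ± 0.223 in D4M. Egr1, the early gene most often measured beside Fos, had 78.5 ± 54.1 CPM in D4M and 78.6 ± 48.8 in HCmel12 and so did not follow Fos. The smallest ranges were those of Ier2 and Btg2. Within lines, in D4M replicate 2, 16 of the 19 were the highest of the 5 libraries (20.7% of all tested genes). In HCmel12 replicate 3 this was so for 12 of the 19 (22.5%), and in RET replicate 3 and in B16F10 luc2 replicate 1 for 9 each (21.4% in both). In WT31 it was so for 7 in replicate 2 (16.1%) and for 6 in replicate 5 (29.6%).

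Of 23 genes known as AP-1 targets 20 could be tested, and 17 of the 23 were higher in D4M than in each other line (20% of the tested genes). Of these 17, Mmp3, Mmp10, Areg and Ereg had under 10 counts in every library outside D4M, so that they passed the filter only through D4M and had to differ, and 13 did not. The list was chosen with earlier results of these data known, so its share is a description. The proteases Mmp3, Mmp10, Mmp14 and Plau and the receptor gene Plaur were among the 17, while the proteases Mmp9 and Mmp13 could not be tested. Plau, the urokinase plasminogen activator, had 1337 ± 338 CPM in D4M and at most 2.89 CPM in any other library. Mmp3, a stromelysin, had 198 ± 22.2 CPM, and the EGF receptor ligands Ereg and Areg had 237 ± 54.2 and 199 ± 20.2 CPM, while these 3 genes stayed at or below 0.203 CPM in the other 20 libraries. At the other end, Cd44, a hyaluronan receptor, had 802 ± 63.6 CPM in D4M and 441 to 631 on average in the other lines. Sphk1, a lipid kinase, had 18.5 ± 3.46 CPM in RET, 17.9 ± 3.70 in HCmel12 and 11.4 ± 4.57 in D4M. Hmox1 and Ezr were lower in D4M than in each other line (15.7% of the tested genes). Whether an AP-1 factor acts on these genes in these cells was not measured.

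**Figure D5:**
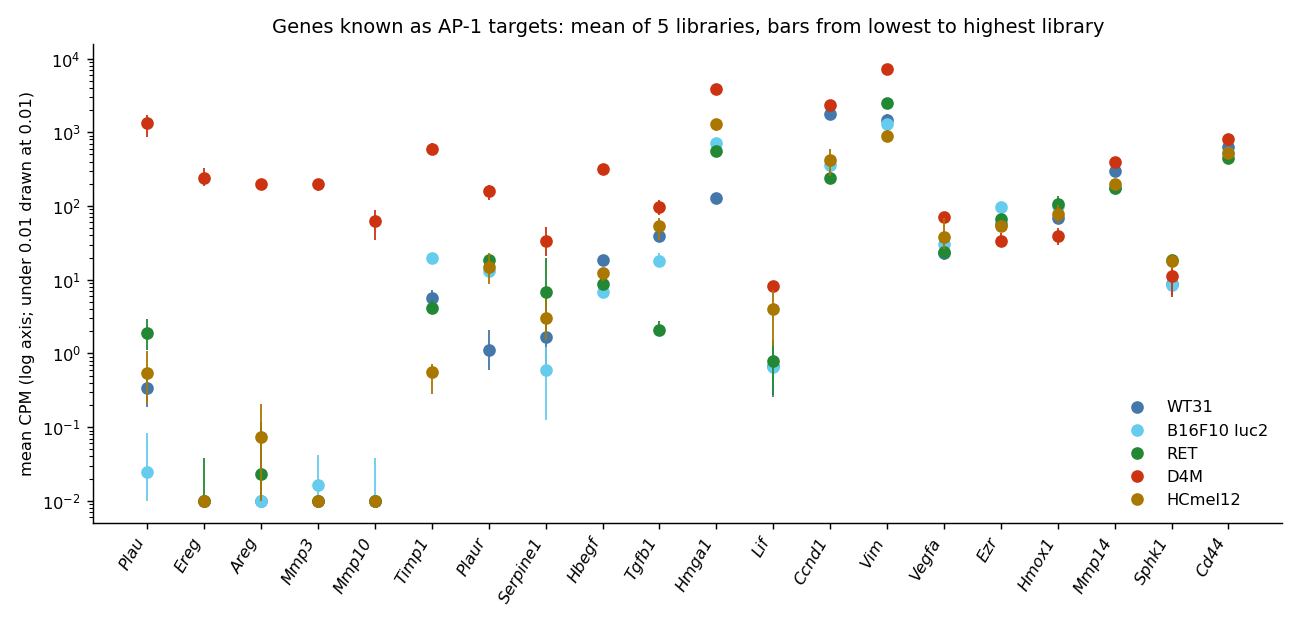
Mean level in CPM (vertical axis, log scale, values under 0.01 drawn at 0.01) of the 20 tested genes known as AP-1 targets, ordered by the range of the line means; points are means of 5 libraries and bars run from the lowest to the highest library. D4M is the highest point for 17 genes, from Plau at 1337 CPM to Cd44 at 802 CPM.

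Of 10 further AP-1 partners 9 could be tested. Higher than in each other line were Atf2, Batf2 and Mafg in D4M (20% of the tested genes), Mafk in HCmel12 (9.56%), Maf and Mafa in B16F10 luc2 (8.81%), and Batf in WT31 (13.8%). Batf passed the filter only through WT31 and so had to differ. Batf2 passed mainly through D4M, with at most 0.435 CPM in any other library. Maf, a large MAF factor, had 28.5 ± 4.55 CPM in B16F10 luc2, 22.3 ± 2.96 in RET and 17.8 ± 2.31 in D4M, but 1.12 ± 0.40 in WT31 and 0.0404 ± 0.057 in HCmel12. Batf, a relative of Batf3, had 1.28 ± 0.36 CPM in WT31 and at most 0.356 CPM in any other library. Atf2 and Atf7, with the smallest ranges, stayed between 55.2 and 78.5 CPM on average in all lines. Among 19 kinases, serum response factors and phosphatases upstream of AP-1, 4 were higher in D4M than in each other line (Mapk8, Mapk10, Elk1 and Elk3), a share near that of all tested genes (20%). Elk3, a ternary complex factor, had 242 ± 15.7 CPM in D4M, 144 ± 7.02 in WT31 and 34.8 ± 2.90 in B16F10 luc2. Mapk10, a JNK kinase known from neurons, had 1.80 ± 0.605 CPM in D4M and was listed at 0 counts in the 20 other libraries, which allows up to 3 counts in each, so that it passed the filter only through D4M and had to differ. Dusp6, a phosphatase that is itself induced by ERK, was highest in HCmel12 (365 ± 36.5 CPM), and Dusp10 was highest in WT31 (34.4 ± 8.47 CPM). Mapk9, another JNK kinase and among the 2 with the smallest ranges, varied between 44 and 56.8 CPM on average. In D4M the median log2 difference of these 19 genes from the other lines was between 0.05 and 0.56.

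The identity of the lines was checked by cell type markers. The 7 melanocyte genes (Mitf, Sox10, Pmel, Mlana, Tyr, Tyrp1 and Dct) summed to between 12026 and 30205 CPM in the libraries of WT31, B16F10 luc2, RET and HCmel12. In D4M their sum was 6.54 to 59.6 CPM and all 7 were lower than in each other line (15.7% of the tested genes), although none was at 3 counts or less in all 5 libraries. Mitf lay between 5.91 and 6.99 CPM in D4M. Tyrp1 ranged there from 0 to 27 CPM, Dct from 0.0906 to 10.7 and Pmel from 0.267 to 8.78. For each of these last genes a single library of D4M held most of the level. Of 4 genes of undifferentiated melanoma Axl, Sox9 and Wnt5a were higher in D4M than in each other line (20% of the tested genes), whereas Ngfr was highest in WT31 (60.9 CPM on average) and had its lowest mean in D4M (1.91 CPM). The list summed to between 1252 and 1358 CPM in D4M, mostly from Axl, and elsewhere to at most 174.5 CPM. Wnt5a had under 10 counts in every library outside D4M and so had to differ. The 5 fibroblast genes summed to between 451 and 674 CPM in D4M (Col1a2, Col1a1 and Pdgfra, with Lum at 0) and to at most 88.6 CPM elsewhere. Endothelial genes summed to between 25.4 and 39.1 CPM in HCmel12, nearly all from Kdr with Cdh5 at 0, and to at most 2.03 CPM elsewhere. Blood cell genes summed to at most 15.9 CPM, in D4M, with Ptprc and Cd3e near 0, and keratinocyte genes to at most 3.11 CPM. The only tested blood cell gene, Cd68, and the only tested keratinocyte gene, Krt10, were also higher in D4M than in each other line (20% of the tested genes). Cd68 had 8.01 ± 5.15 CPM there and at most 3.61 on average elsewhere. Krt10 had 2.47 ± 0.358 CPM there and 1.99 ± 0.313 in WT31, with overlapping libraries, and 0 CPM in B16F10 luc2, RET and HCmel12. The summed levels of the fibroblast and undifferentiated lists were thus higher in D4M than in the other lines, as were Fosl1, Fosb, Fosl2, Jun and Junb. The sum of the melanocyte list was lower there. Cd68 also had its highest mean in D4M, Krt10 was detected in both D4M and WT31, and Ngfr had its lowest mean in D4M. The part of these markers in the differences was not tested. In bulk RNA a change in the share of cells and a change per cell cannot be told apart.

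Over the 25 libraries the genes most like Fosl1 in log2 CPM were Ptgfr, a prostaglandin receptor gene (Pearson r = 0.985), Pla2g7 (0.9831) and Nadk (0.9811). Their means in D4M were 15.8, 195 and 319 CPM, and Ptgfr and Pla2g7 were at most 0.339 CPM on average elsewhere, while the mean of Nadk was at most 154 CPM there. The genes most like Fosb were Rin1 (0.9749), Pla2g7 (0.974) and ENSMUSG00000118394.1, which has no symbol (0.9739). The libraries of a line share its level, so these values describe mainly the step between D4M and the rest.

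The start regions of the members were read from RefSeq (GRCm38.p6), which gave 11 windows for 9 members, taken as the 250 bases before each start. They are shown for Jun, which was highest in D4M, and Maff, highest in HCmel12, since these were the members whose windows held a searched motif, and for Fosb, with the largest fold change among members with a window. Searched on both strands were the AP-1 site TGANTCA, the cAMP response element TGACGTCA, the variant TGACATCA known from the Jun promoter, and the CArG box of serum response factor; the variant was added after the sequences had been read. Motif matches are in capitals.
Jun, chr4:95052223-95052472, minus strand: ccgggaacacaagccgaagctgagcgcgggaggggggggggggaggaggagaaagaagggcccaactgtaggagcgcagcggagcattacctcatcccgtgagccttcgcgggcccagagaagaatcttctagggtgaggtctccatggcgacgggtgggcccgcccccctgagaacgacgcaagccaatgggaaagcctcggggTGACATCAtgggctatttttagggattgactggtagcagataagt
Maff, chr15:79347270-79347519, plus strand: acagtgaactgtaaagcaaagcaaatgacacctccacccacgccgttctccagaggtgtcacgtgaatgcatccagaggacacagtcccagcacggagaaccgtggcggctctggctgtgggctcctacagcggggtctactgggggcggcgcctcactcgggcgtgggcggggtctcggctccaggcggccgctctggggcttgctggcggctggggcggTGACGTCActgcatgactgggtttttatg
Maff, chr15:79348152-79348401, plus strand: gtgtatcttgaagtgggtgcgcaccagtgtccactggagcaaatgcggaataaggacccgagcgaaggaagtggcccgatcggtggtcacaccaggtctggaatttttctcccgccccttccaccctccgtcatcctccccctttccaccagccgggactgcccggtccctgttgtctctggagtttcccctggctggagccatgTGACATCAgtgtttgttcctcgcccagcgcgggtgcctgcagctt
Fosb, chr7:19310046-19310295, minus strand: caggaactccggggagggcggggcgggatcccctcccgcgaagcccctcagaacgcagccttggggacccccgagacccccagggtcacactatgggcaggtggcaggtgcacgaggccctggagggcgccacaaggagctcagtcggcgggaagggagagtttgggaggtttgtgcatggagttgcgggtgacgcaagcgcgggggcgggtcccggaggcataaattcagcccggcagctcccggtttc
The variant TGACATCA began 45 bases before the start of Jun and 45 bases before one start of Maff, and TGACGTCA began 29 bases before another start of Maff. No window of the members held TGANTCA or a CArG box. Of all 32851 windows of this length 6.75% held TGANTCA, 1.55% TGACGTCA, 2.93% TGACATCA and 1.47% a CArG box. The first window of Maff and those of the other members without a match are not shown.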

How the data were processed

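RNA came from 25 cultures of 5 murine melanoma lines, with 5 biological replicates per line as labelled. Per the labels, reads were trimmed with Trim Galore (0.6.4) and assigned to GRCm38.p6 with kallisto (given there as 0.4.6); the annotation release, the strand setting and the step from transcripts to genes are not given in the sources used here. The authors deposited estimated counts per gene without normalization, and kallisto divides reads among matching transcripts. The authors also deposited TPM, scaled by transcript length to 1000000 per library; TPM of D4M replicate 1 was not used here. Library totals lay between 24199083 and 25843286 counts. The exact intervals of the Fosl1 rate ratios and the floors cover counting error only. The intervals of log2 fold changes come from the limma fit and reflect the spread between cultures within lines, estimated jointly over the 5 lines.

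Counts were filtered with filterByExpr with the line as the group (edgeR 4.0.16), scaled with TMM and fitted with voom and limma (3.58.1, R 4.3.3) with 1 mean per line. All p-values were adjusted over the 15247 tested genes per comparison (10 pairs of lines). Alternatives were scaling by library size or with the size factors of DESeq2 (1.42.0), edgeR's quasi-likelihood and DESeq2's Wald test on rounded counts, no filter or at least 10 counts in every library, only the 2 lines of a comparison, the replicate number as a block, log2 of TPM plus 1 or 0.1, a minimum log2 fold change of 1 in either direction, Fosl1 summed with Ccdc85b, and leaving out each library. Shared sequence was counted as 31-base sequences on both strands (GENCODE M21). The fits were tested on simulated data. The members and the gene lists were chosen with earlier results of these data known. Named are the 10 members, the neighbour Ccdc85b, up to 4 genes per list with the largest and 2 with the smallest range, and the 3 genes most like each of the 2 members with the largest range. Gm11175, Junos, Prdx2, Egr1, the genes counted by name and those named with the markers were chosen after their values were seen. Some list genes and 1 allele are not reported here.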

Additional observations from a re-analysis of the deposited data

Results flagged for a closer look

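In 3 of 47 groups of 5 libraries, 1 library lay far from the other 4 by Dixon's ratio of gap to range, where chance gives about 1 in 20. Fos in RET replicate 3 had 3.70 CPM, and the other libraries of RET had 2.25 to 2.43 CPM. Jun in WT31 replicate 1 had 90.7 CPM, with the others between 59.0 and 66.1 CPM. Junb in D4M replicate 2 had 123 CPM, with the others between 52.8 and 68.0 CPM. RET replicate 3 and D4M replicate 2 are also libraries in which many other immediate early genes were the highest of their line. Without D4M replicate 2, and without each of the other libraries in turn, Junb remained among the 5 members that were higher in D4M than in each other line.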

How the results depend on the processing

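Of 1759 recomputed log2 fold changes of the members 1706 kept their direction and call, and of 664 recomputed counts of members 562 were equal to the reported count, 82 differed by at most 1.5 times and 20 by more. With scaling by library size alone the median of all genes in D4M shifted by -0.21 against WT31, -0.14 against B16F10 luc2 and -0.19 against RET, that of HCmel12 against D4M by 0.16, and Maff turned to -0.02 between B16F10 luc2 and RET. Without a filter no member was lowest in HCmel12 (0, Jun in the fit reported). With at least 10 counts in every library 10497 genes and 7 members remained, of which 5 were called in HCmel12 against each of WT31, B16F10 luc2 and RET, 3 were highest in D4M and 2 had one sign in the 6 comparisons. When a log2 fold change of 1 or more in either direction was also required, 3 members were called in B16F10 luc2 against WT31, 1 in RET against WT31, 1 in RET against B16F10 luc2, and 5 in HCmel12 against B16F10 luc2 and against RET; 0 were highest in WT31, 0 lowest in WT31, 0 lowest in HCmel12 and 2 had one sign in the 6 comparisons. Fosl1 summed with Ccdc85b, which dominates the sum outside D4M, gave -0.49 for HCmel12 against WT31. The share of Fosl2 in RET was 48.5% on counts per kilobase. Leaving out 1 library at a time, Fosb in WT31 against B16F10 luc2 ranged from -0.14 to 0.52, Fosl2 in B16F10 luc2 against HCmel12 from -0.05 to 0.26, Maff in B16F10 luc2 against RET from -0.12 to 0.19, and the members lowest in HCmel12 from 0 to 2 (2 without B16F10 luc2 replicate 5, 0 without RET replicates 2 or 3 or HCmel12 replicates 4 or 5). Causes were not tested.

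Replicates with the same number in different lines did not deviate together (correlations over genes from -0.091 to 0.104, 50 pairs), and the numbers were not used as a pairing. The labels do not say whether cultures with the same number were handled together, and these correlations cannot decide it. With a replicate block the members called in D4M against WT31 rose from 9 to 10, and the 5 members highest in D4M stayed 5.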
